A study of Ovis aries with 2 samples.

Results

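Endothelial cells line the inside of blood vessels. In the library labelled ZEA0.75 they were taken as the cell barcodes with at least 500 unique molecular identifiers (UMIs, which count each captured RNA molecule once), at least 2 UMIs of VWF and CDH5 together, at most 2 of ACTA2, at most 2 of DCN and 0 of C1QA, C1QB and C1QC together. VWF encodes von Willebrand factor and CDH5 encodes VE-cadherin, the adhesion protein of endothelial junctions. ACTA2, DCN and the C1Q genes mark contractile cells, fibroblasts and macrophages. The rule found 1631 of 8809 ZEA barcodes, 18.5% (17.7 to 19.3%, exact Clopper-Pearson 95% interval). The barcodes were chosen by measured counts, so the levels of these 7 genes, and every comparison of the chosen barcodes with the rest of the library, are descriptions without a test.

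The study sequenced testis of sheep labelled 8 months old in 2 droplet libraries, 1 labelled Control and 1 labelled ZEA0.75, with a 10x 3' gel bead kit. ZEA commonly stands for zearalenone, a fungal toxin that acts as an oestrogen. The labels neither spell it out nor give the unit of 0.75, the breed, the number of animals, or whether animals or tissue were exposed. With 1 library per group no difference between the groups can be tested, and all intervals below cover counting error only.

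A vessel wall holds endothelial cells on a basement membrane, with pericytes or smooth muscle around them. Arteries, capillaries, veins and lymphatic vessels use partly different genes: Notch signalling marks arteries, transporters and carbonic anhydrase 4 mark many capillaries, and selectins and chemokine receptors mark veins. In the testis the vessels run between the seminiferous tubules and carry hormones and nutrients to and from them.

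Of the 1631 endothelial barcodes, 1190 (73.0%, 70.7 to 75.1%) had both VWF and CDH5, 212 had VWF only and 229 had CDH5 only. VWF had a median of 2 UMIs per barcode (highest 25) and CDH5 a median of 2 (highest 15). Among 1696 barcodes with enough VWF and CDH5, 65 failed a limit: 34 exceeded that on ACTA2, 20 that on DCN and 13 that on C1Q, so some failed more than 1. In the Control library, where 7030 barcodes were deposited, the same rule found 6 barcodes (0.0853%, 0.0313 to 0.186%). Of these, 3 carried 6, 10 and 14 UMIs of other endothelial genes. The other 3 were deep barcodes of 7073, 12828 and 16388 UMIs that carried 0 such UMIs and 74, 138 and 145 UMIs of HMGB4, a spermatid gene. No endothelial level was therefore compared between the libraries.

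Genes that the rule did not use also marked these barcodes as endothelial. A list of 42 endothelial genes, of which 34 are named in the files, summed to 6184 CPM (counts per 1000000 UMIs of the same sum; 6125 to 6244, exact Poisson interval) in the endothelial sum and 915 CPM in the sum of the other 7178 ZEA barcodes. The endothelial barcodes carried a median of 21 UMIs of this list (lowest 0, highest 122), and 14 of them carried none. Just inside the threshold, the 411 barcodes that met the other limits with 2 UMIs of VWF and CDH5 had 5460 CPM of the list and a median of 1839 UMIs in all. Just outside it, the 790 barcodes with 1 UMI had 3271 CPM and a median of 1408.5 UMIs, against 456 CPM in the 5286 with 0. The other ZEA barcodes thus still hold endothelial RNA, and ratios against them are smaller than ratios against the 6285 other barcodes without VWF and CDH5 UMIs, where the median log2 ratio of the list was 3.64 rather than 2.70.

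The endothelial barcodes were deeper than the rest. Their median was 3365 UMIs (lowest 500, highest 29792) and 1427 genes, against 1150 UMIs and 727 genes in the other ZEA barcodes. Barcodes under 1000 UMIs made up 98 of the endothelial set (6.01%) and 3153 of the others (43.9%). Thinned to 500 UMIs each, which left out no barcode, the order of gene numbers turned: the median was 343 genes in the endothelial set and 388 in the others. The endothelial barcodes held 6806517 of the library's 22148456 UMIs (30.7%). Mitochondrial genes gave a median of 1.56% of UMIs in the endothelial set and 0.282% in the others. A barcode needs depth to reach 2 UMIs of VWF and CDH5: thinned to 500 UMIs before the rule, 3.55% of the ZEA barcodes met it.

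**Figure D1:**
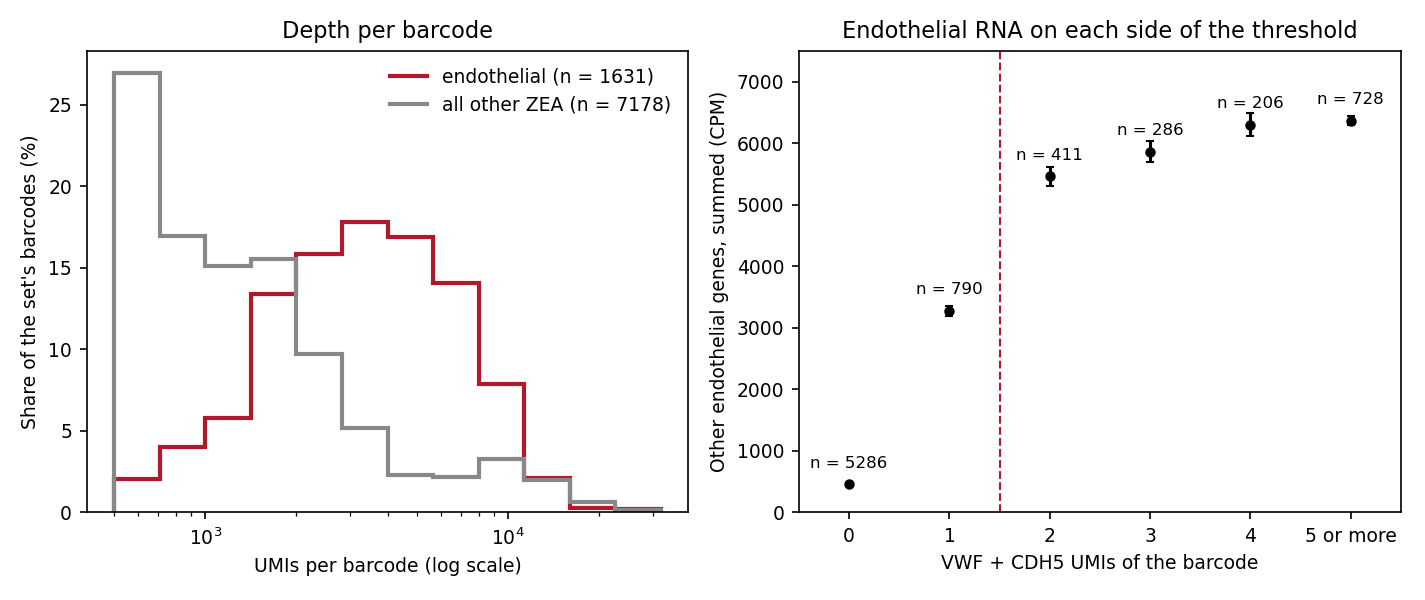
Left, the share of endothelial and of all other ZEA barcodes in each bin of UMIs per barcode (log axis); the endothelial median was 3365 and that of the others 1150. Right, the summed level (CPM, exact Poisson 95% intervals) of endothelial genes outside the rule, for ZEA barcodes that met the limits on ACTA2, DCN and C1Q, by their VWF + CDH5 UMIs. The dashed line marks the threshold, across which the level went from 3271 to 5460 CPM.

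RNA of germ cells was found in most endothelial barcodes. HMGB4 had a UMI in 87.0% of them and by definition in each of the 747 spermatid barcodes, those with at least 20 HMGB4 UMIs. The list of elongating spermatid genes summed to 1757 CPM in the endothelial set and 11375 CPM in the spermatid set. Genes of the 3 lists of spermatocytes and spermatids gave a median of 0.209% of UMIs per endothelial barcode, and more than 1% in 71 of them (4.35%). A low share of barcodes with a UMI is therefore read beside that in spermatid barcodes, which were deeper (median 6318 UMIs). Doublets were not called. Between the libraries 15 barcode sequences are shared, 2 of them endothelial.

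Against all other ZEA barcodes, 2246 of 7030 genes entered (31.9%) were at least 2-fold higher in the endothelial sum and 2231 (31.7%) at least 2-fold lower. A gene had to reach 50 UMIs over the pair of sums and be seen in 5% of the barcodes of either set. The median log2 ratio over all entered genes was 0.19. Ratios were taken for 1 gene at a time between sets, since the counts are not divided by transcript length. A second comparison used the 1124 ZEA barcodes with at least 3 ACTA2 UMIs, 3 DCN UMIs or 1 KCNJ8 UMI. These are called contractile, fibroblast and pericyte barcodes from those counts alone, and had a median of 1703 UMIs. They hold endothelial RNA as well: the list of endothelial genes summed to 1321 CPM in them. Ratios of endothelial genes against them are therefore smaller too. There, 718 of 6666 genes (10.8%) were at least 2-fold higher in the endothelial sum and 965 (14.5%) lower.

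Among genes with at least 200 endothelial UMIs, the 25 with the highest ratio included transporters, endothelial receptors and carbonic anhydrases. CA4, the membrane-bound carbonic anhydrase of capillaries, had a median of 5 UMIs per endothelial barcode (lowest 0, highest 103) and reached 2065 CPM against 217 in the others, a log2 ratio of 3.25 (3.19 to 3.30). It had a UMI in 80.3% of endothelial barcodes and 6.69% of spermatid barcodes. ABCG2, an efflux pump of barrier tissues, had a median of 7 UMIs (highest 77). It was found in 90.7% of endothelial barcodes and 9.37% of spermatid barcodes, at 2180 CPM against 266. Few endothelial barcodes were without it, whereas CA4 was at 0 in about 1 barcode of every 5.

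ETS1, a transcription factor of vessel development, stood at 1314 CPM against 159 (median 4 UMIs per barcode, highest 38). ENG, the TGF-beta co-receptor endoglin, stood at 414 against 50.3 CPM. ROBO4, a guidance receptor of endothelium, stood at 111 against 11.9 CPM. CLEC14A and MMRN2, which encode binding partners on the endothelial surface, stood at 48.5 against 5.997 CPM and 31.3 against 3.91 CPM. These 5 genes belong to the endothelial list and were near 0 in spermatid barcodes, with a UMI in 0.134% (MMRN2) to 4.15% (ETS1) of them.

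Transport and lipid uptake genes were also among the 25. MFSD2A, a lysophospholipid transporter of the blood-brain barrier, had a UMI in 22.4% of endothelial barcodes and stood at 69.1 against 8.34 CPM. SLC7A5, the light chain of the large neutral amino acid transporter, stood at 65.5 against 8.02 CPM, and SLCO2A1, the prostaglandin transporter, at 29.7 against 3.19 CPM. SCARB1, the receptor for high-density lipoprotein that steroid-making cells also use, had a UMI in 51.6% of endothelial barcodes, at 241 against 29.6 CPM. The Leydig cell genes STAR and INSL3, by contrast, had 4 and 6 UMIs in the whole endothelial sum. SELP, the adhesion molecule P-selectin, stood at 116 against 14.1 CPM, CCL14, a chemokine, at 85.5 against 10.6, and GBP5, an interferon-induced GTPase, at 116 against 14.7.

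Several transcription factors not in the endothelial list were in this group as well. IRX3, a homeobox factor, stood at 43.0 CPM against 4.76, and ZNF366, a zinc finger factor, at 30.9 against 3.26. NR5A2, a nuclear receptor known from steroid-making and liver cells, stood at 31.0 CPM against 3.91, with a UMI in 11.6% of endothelial and 0.535% of spermatid barcodes. The highest ratio of the 25 belonged to ST6GAL2, a sialyltransferase, at 54.5 against 5.48 CPM, a log2 ratio of 3.32 (2.97 to 3.67). The remaining genes of the 25 were C1orf115, MATN2, SHROOM4, EHD4, TM4SF18, LIMCH1 and CA5A, and CA5A is described further on.

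The 10 genes with the lowest ratio, among those with 200 UMIs in the other barcodes, came from other cells of the tissue. COL1A1, of fibroblasts, stood at 5.44 CPM in the endothelial sum, 147 in all others and 849 in the contractile, fibroblast and pericyte sum. APOD, MFAP4 and EMP3 stood at 1.03 to 2.06 CPM in the endothelial sum and at 224 to 409 CPM in that same comparison set. IGHM and JCHAIN, of antibody-making cells, stood at 1.76 and 2.06 CPM against 175 and 54.4 in all others. They had a UMI in only 0.738% and 1.71% of the other barcodes, and in 0.736% and 0.858% of endothelial ones. Both were thus under the 5% detection minimum. In the contractile, fibroblast and pericyte sum they stood at 4.98 and 9.13 CPM. CFD, MRVI1, DQA and CAP2 completed the group, at 0.588 to 1.03 CPM, and were also under the detection minimum against all others.

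**Figure D2:**
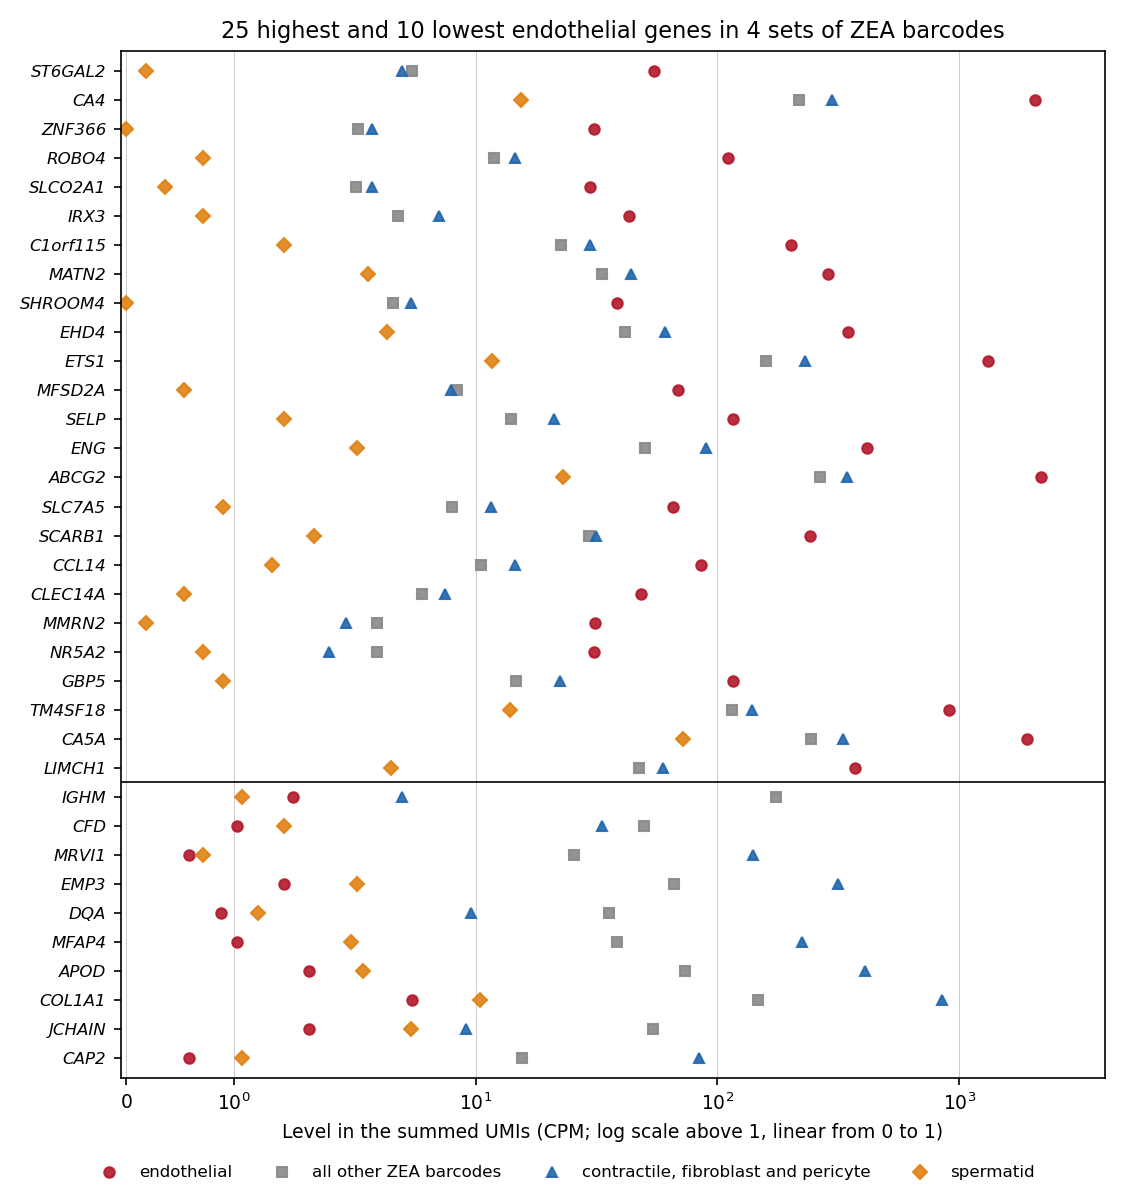
Level (CPM of summed UMIs; log axis above 1 CPM) of the 25 genes with the highest and, below the line, the 10 genes with the lowest endothelial ratio, in endothelial barcodes, all other ZEA barcodes, contractile, fibroblast and pericyte barcodes, and spermatid barcodes. For the 25 upper genes the endothelial point lies farthest right; CA4 stood at 2065, 217, 298 and 15.4 CPM in the 4 sets.

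Of the endothelial list 28 genes entered, with log2 ratios against the other ZEA barcodes of 2.05 (FLI1) to 3.48 (SOX17) and a median of 2.70. Of these, 20 had a UMI in under 5% of the other barcodes and so passed the filter only through the endothelial set, where they had to be high. The same filter bears on every list count below, and the counts are descriptions. Over all genes, 31.9% were higher and 31.7% lower against all other ZEA barcodes, and 10.8% and 14.5% in the second comparison. Against the contractile, fibroblast and pericyte barcodes, where 19 of 28 passed in this way, the median was 2.69 beside -0.03 over all genes. RAMP2, which carries the adrenomedullin receptor to the surface, had a UMI in 88.0% of endothelial barcodes and stood at 1124 against 154 CPM. PECAM1, a junction adhesion protein, stood at 304 against 55.4 CPM and had a UMI in 56.0%. Some textbook genes were sparse: NOS3, the endothelial nitric oxide synthase, had 31 UMIs in all, TAL1 had 5, and APLNR had 0. The exact Poisson interval of a 0 reaches 0.542 CPM.

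The receptors by which endothelium senses growth factors were higher, and the ligands were few. Of the VEGF and angiopoietin list 6 of 6 genes entered were at least 2-fold higher. KDR and FLT1, the VEGF receptors, stood at 201 against 32.1 and 143 against 20.9 CPM. TEK and TIE1, receptors of the angiopoietin system, stood at 50.7 against 8.41 and 37.3 against 5.02 CPM, and PTPRB, the phosphatase that acts on TEK, at 759 against 121. VEGFC, ANGPT1 and ANGPT2 had 14, 6 and 35 UMIs in the endothelial sum, and PGF and VEGFD had 0. FLT4, the VEGF receptor of lymphatic vessels, had 3 UMIs.

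Of the BMP and TGF-beta list, 9 of 12 genes entered were at least 2-fold higher and 0 lower. BMPR2 and TGFBR2, type 2 receptors, stood at 92.9 against 16.0 and 55.7 against 9.13 CPM, and ID3, a target of BMP signalling, at 428 against 155 CPM. The Notch list was mixed, with 5 of 7 higher and 1 lower. MFNG, which modifies Notch, had a log2 ratio of 2.72, JAG1, a ligand, 1.79, and NOTCH4, the endothelial receptor, -1.04. NOTCH4 had a UMI in 38.8% of spermatid and 8.77% of endothelial barcodes. Against the contractile, fibroblast and pericyte barcodes the Notch median was 0.35, with 3 of 7 higher.

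Of the transporter list, 11 of 11 entered were at least 2-fold higher than in all others, with a median of 2.74. Against the contractile, fibroblast and pericyte set 10 of 11 were. The filter set part of this: SLCO2A1 and MFSD2A had a UMI in 0.669% and 1.55% of the other barcodes. They entered only through the endothelial set. Both identifiers named ABCB1, the efflux pump P-glycoprotein, were among them, at 71.7 against 10.8 CPM and 44.8 against 7.10 CPM. Their reads may be split between the 2 copies. SLC3A2, the partner of SLC7A5, stood at 673 against 104 CPM, and CAV1, the protein of caveolae, at 283 against 69.1. PLVAP, the diaphragm protein of fenestrated endothelium, had 14 UMIs in all, and SLC2A1, the glucose transporter of brain capillaries, had 22.

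Junction genes were higher in 9 of 11 cases and lower in 2. AFDN, CTNNB1 and TJP1, which tie junctions to the cytoskeleton, stood at 255 against 44.8, 280 against 50.4 and 134 against 41.8 CPM. OCLN, the tight junction protein occludin, stood at 23.1 against 5.48 CPM and at 0.830 CPM in the contractile, fibroblast and pericyte set. The 2 lower genes, CDH13 and JAM3, had a UMI in 31.9% and 32.0% of the spermatid barcodes.

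The basement membrane list was higher in 14 of 19 genes entered and lower in 0. COL4A1, a chain of type 4 collagen, had a median of 10 UMIs per endothelial barcode (lowest 0, highest 149) and stood at 3660 against 522 CPM. COL4A2, its partner chain, stood at 744 against 118 CPM, and ITGA6, a laminin receptor, at 388 against 58.3. Against the contractile, fibroblast and pericyte barcodes 8 of 20 were higher and 2 lower, with a median of 0.49: COL4A1 kept a log2 ratio of 1.41, while COL18A1, the chain of collagen XVIII, stood at -2.42 (72.7 against 388 CPM).

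Of the 6 antigen presentation genes entered 5 were at least 2-fold higher. PSMB8 and PSMB9, subunits of the immunoproteasome, stood at 858 against 152 and 893 against 168 CPM, and B2M, the light chain of class I molecules, at 375 against 110. Class II genes were few, with CD74 at 3 UMIs and HLA-DRA at 1. Interferon-induced genes were higher in 11 of 14 cases and lower in 0, such as IFIT1 (201 against 43.2 CPM) and MX1 (172 against 39.8 CPM). Against the contractile, fibroblast and pericyte set 6 of 14 were higher and 1 lower (IFI6, at 227 against 618 CPM). The 6 leukocyte adhesion genes entered were all higher than in all others, with NFKBIA, an inhibitor of NF-kappa B, at 1143 against 254 CPM, and 3 of 6 were higher than in the contractile, fibroblast and pericyte set. SELE, E-selectin, had 1 UMI.

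Early response and heat shock genes were higher than in all other barcodes, with smaller differences from the contractile, fibroblast and pericyte set. JUN had a median of 12 UMIs per endothelial barcode (highest 149). Of 20 immediate early genes 13 were at least 2-fold higher than in all others and 0 lower, with JUN at 4838 against 1244 CPM and FOS at 2413 against 890. Against the contractile, fibroblast and pericyte set, 4 of 21 were higher and 6 lower, beside 10.8% and 14.5% of all genes. FOS stood at 2666 CPM there. Heat shock genes gave 6 of 9 higher and 2 lower against all others. HSPB1 stood at 2715 against 657 CPM, and CRYAB, which muscle expresses, at 24.7 against 112. Markers of endoplasmic reticulum stress showed no common direction, with 3 of 10 higher and 1 lower, beside 31.9% and 31.7% of all genes.

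Coagulation and vascular tone genes were mixed. Of the haemostasis list 3 of 6 were at least 2-fold higher and 0 lower, beside 31.9% and 31.7% of all genes. The higher ones were F2R, the thrombin receptor, F8, coagulation factor VIII, and MMRN2. THBD, thrombomodulin, had 61 UMIs and was too sparse to enter. In the vascular tone list 6 of 9 were higher and 2 lower. CALCRL, the receptor that RAMP2 joins, stood at 112 against 21.8 CPM, ECE1, the endothelin-converting enzyme, at 57.0 against 11.3, and EDN1, endothelin 1, at 14.4 against 2.61. GUCY1B1, a subunit of the nitric oxide receptor, was lower, at 14.8 against 68.8 CPM and 256 CPM in the contractile, fibroblast and pericyte set. Both list medians changed sign against that set, to -0.40 for each.

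No UMI of the oestrogen receptors ESR1 or ESR2 was counted in the endothelial sum, and 7 and 2 were counted in all other ZEA barcodes. A count of 0 allows up to 0.542 CPM by counting error alone (exact Poisson interval). SOD1, an enzyme of nearly every cell, is also listed at 0 in the endothelial and the other ZEA barcodes, so a 0 here does not bound expression. NR3C1, the glucocorticoid receptor, had a UMI in 49.2% of endothelial barcodes and 11.5% of spermatid barcodes, at 198 against 58.6 CPM. NR1H3, a sterol-sensing receptor, stood at 42.9 against 11.1 CPM, and THRB, a thyroid hormone receptor, at 7.20 against 47.5. GPER1 matched no symbol and was not analysed here.

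Genes of the neighbouring cell types were low. Against all other ZEA barcodes 5 of 7 smooth muscle, 4 of 5 pericyte and 5 of 5 fibroblast genes that entered were at least 2-fold lower in the endothelial sum and 0 higher. Against the contractile, fibroblast and pericyte set, which ACTA2, DCN and KCNJ8 chose, all that entered were lower, but 7 of 11, 4 of 6 and 7 of 8 of them passed the detection minimum only through that set. RGS5, of pericytes, stood at 7.35 against 780 CPM, MYH11, the smooth muscle myosin, at 28.1 against 2593, and PDGFRB, CNN1 and LUM had 0 UMIs. The fibroblast list summed to 111 CPM in the endothelial set and 3749 CPM in that comparison set. Of lymphocyte genes none entered, with 11 UMIs of PTPRC. The spermatid lists were lower than in all other ZEA barcodes in 8 of 8 and 10 of 10 genes. WT1, a transcription factor in the Sertoli cell list, was higher: it had a UMI in 25.4% of endothelial barcodes and 1.07% of spermatid barcodes, at 79.6 against 14.7 CPM, while SOX9, another gene of that list, had 1 UMI.

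**Figure D3:**
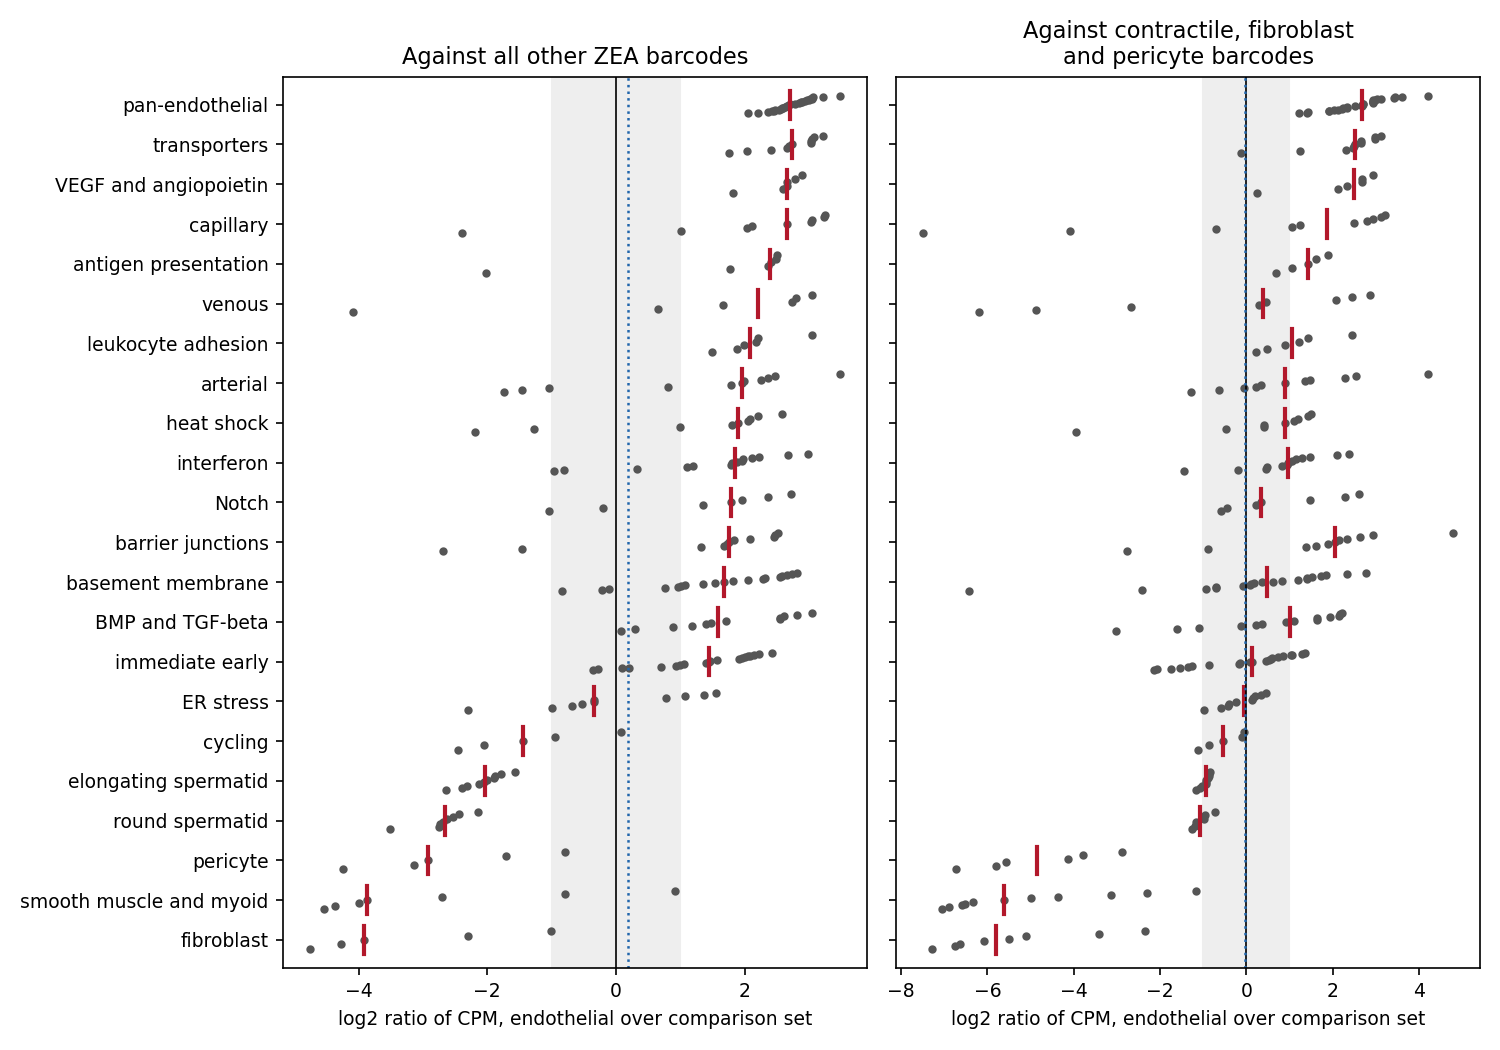
Each point is a gene that entered, at its log2 ratio of endothelial CPM to that of all other ZEA barcodes (left) or of contractile, fibroblast and pericyte barcodes (right). Red bars are list medians, the dotted line is the median of all genes (0.19 left, -0.03 right) and the grey band covers less than 2-fold. The endothelial list lies wholly to the right of the band in both panels, with medians of 2.70 and 2.69; the immediate early median is 1.45 on the left and 0.14 on the right.

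To describe vessel types, the UMIs of arterial, venous, capillary and lymphatic gene lists were summed in each endothelial barcode. The barcode took the list with most UMIs if that was at least 2 and ahead of every other list. These sets are ranges of a count, not types, and the list genes are no result between them. The capillary set held 1229 barcodes (75.4%, 73.2 to 77.4%), the arterial set 217 (13.3%, 11.7 to 15.05%), the venous set 17 (1.04%) and the lymphatic set 10 (0.613%), with 158 (9.69%) in none. Median depths were 3794 UMIs in the capillary, 3097 in the arterial and 1371.5 in the undecided barcodes. CA4 gave 72.95% of the capillary list's UMIs, so the capillary set is mostly a count of CA4. The arterial list summed to 552 CPM in endothelial, 506 in all other ZEA and 535 in spermatid barcodes. The capillary list summed to 2831, 476 and 87.7 CPM in the same order. Arterial list UMIs of an endothelial barcode may thus include RNA of germ cells, and their part in the arterial share was not tested.

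The genes with most UMIs, CXCL12, SELP, CA4 and LYVE1, were then left out of the assignment and read as outside measures. The capillary set shrank to 816 barcodes (50.03%), the arterial set held 242 (14.8%), the venous set 56 (3.43%), the lymphatic set 11 and no set 506 (31.0%). CXCL12, a chemokine of arterial endothelium, stood at 367 CPM (331 to 405) in this arterial set and 133 (122 to 145) in the capillary set. CA4 stood the other way, at 1162 CPM (1098 to 1228) in the arterial and 2355 (2308 to 2402) in the capillary set. SELP was highest in the venous set, at 273 CPM (208 to 352) against 125 in the capillary and 63.6 in the arterial set. The venous set was also rich in CA4, at 2121 CPM (1931 to 2324) with a UMI in 85.7% of its barcodes, near the capillary level. LYVE1, of lymphatic endothelium, had 3 UMIs in the 11 lymphatic barcodes, too few to read an order. Of the other lymphatic genes, CCL21 had 0 UMIs in all endothelial barcodes, and PROX1 had a UMI in 6.38% of them against 37.5% of spermatid barcodes.

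**Figure D4:**
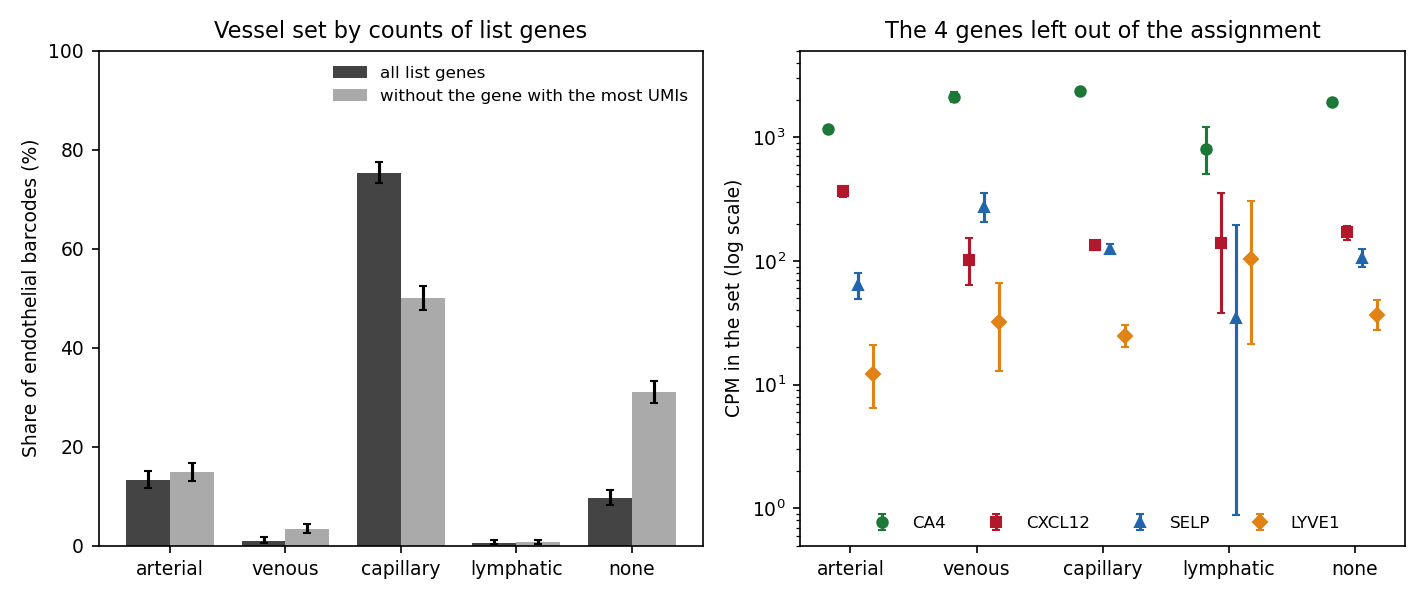
Left, the share of the 1631 endothelial barcodes in each vessel set with all list genes (dark) and without the gene with most UMIs of each list (light), with exact Clopper-Pearson 95% intervals. Right, the level (CPM, log axis, exact Poisson 95% intervals) of the 4 left-out genes in the sets built without them. CXCL12 was highest in the arterial set (367 CPM) and CA4 lowest but for the lymphatic set (1162 CPM in the arterial set).

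Outside the vessel lists, 647 of 6920 genes (9.35%) were at least 2-fold higher in the arterial than in the capillary set with all list genes, and 198 (2.86%) lower. The median log2 ratio of all genes was 0.28, so most arterial values sit slightly above the capillary ones. Scaled to that median, the split turned to 256 higher and 379 lower. Germ cell RNA was also higher in the arterial set, with 2869 against 1491 CPM of elongating spermatid genes, and without the 71 barcodes of over 1% germ cell UMIs 408 genes were higher and 221 lower. Markers of cells around the vessels were mixed. Pericyte genes, at 121 against 56.0 CPM, and fibroblast genes, at 218 against 93.9 CPM, were higher, on 2 genes entered in each list. Smooth muscle genes were level, at 847 against 832 CPM, with 0 of 5 genes entered at least 2-fold higher and 2 lower. Both pericyte genes that entered stayed at least 2-fold higher without those 71 barcodes. Heat shock genes summed to 18213 against 12380 CPM. The part of these cells' RNA in the other differences was not tested.

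The 8 genes highest in the arterial set among those with 100 UMIs were S100A4, ATP13A3, DAAM1, STX11, TGFB2, IGF2, LAMA3 and ITGA2. S100A4, a calcium-binding protein, had a UMI in 42.9% of arterial and 7.16% of capillary barcodes, at 339 against 23.3 CPM, a log2 ratio of 3.86 (3.56 to 4.18). IGF2, insulin-like growth factor 2, had a UMI in 77.4% and 33.4%, at 1046 against 150 CPM. TGFB2, a TGF-beta ligand, stood at 150 against 17.4 CPM, and LAMA3 and ITGA2, a laminin chain and a collagen receptor chain, at 72.6 against 11.2 and 77.6 against 12.1. Their log2 ratios ranged from 2.68 to 3.86.

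The 8 lowest were KAZN, CDH2, CXCL9, MT1X, SLCO2A1, PROS1, SCN3B and SCIN. CXCL9, an interferon-induced chemokine, stood at 30.03 CPM in the arterial and 227 in the capillary set, with a UMI in 22.8% of capillary barcodes. CDH2, N-cadherin, stood at 3.75 against 32.7 CPM, on 3 arterial UMIs. SCIN, the actin-severing protein scinderin, had 0 UMIs in the arterial set and 132 in the capillary set. Its log2 ratio was -2.65 with 3 counts in place of 0 (upper interval limit -2.33). With every barcode thinned to 500 UMIs, PROS1 and SCIN had 0 arterial UMIs each and 14 and 9 capillary UMIs. With 3 counts in place of 0 their log2 ratios were then 0.28 and 0.92, so no direction could be read at that depth.

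The transporter list was lower in the arterial than in the capillary set. Its 13 genes outside the vessel lists summed to 3872 CPM in the capillary and 1444 CPM in the arterial set, with 4 of the 9 genes entered at least 2-fold lower in the arterial set and 0 higher. ABCG2 stood at 2447 CPM in the capillary and 649 in the arterial set, and EHD4, an endocytic protein, at 383 against 169. Of the junction genes 6 of 12 were at least 2-fold higher in the arterial set and 1 lower, beside 9.35% and 2.86% of all genes. PECAM1 stood at 797 against 229 CPM, LSR, a tight junction protein, at 58.8 against 6.94, and OCLN at 50.05 against 19.9. Without the 71 barcodes of high germ cell share these counts were 4 of 9 lower for transporters and 7 of 12 higher for junctions. Thinned to 500 UMIs, 1 of 4 transporters was lower, and of 4 junction genes 1 was higher and 1 lower, with a junction median of 0.074 in place of 1.14.

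Basement membrane genes split between the sets. COL4A1, COL4A2 and COL15A1 were lower in the arterial set, at 1755 against 4005, 339 against 821 and 43.8 against 158 CPM. LAMA3, COL18A1 and FN1, fibronectin, were higher, with FN1 at 135 against 53.5 CPM. In all, 3 of 18 were at least 2-fold higher and 5 lower, beside 9.35% and 2.86% of all genes. The endothelial list without its vessel-list genes summed to 5626 CPM in the arterial and 6098 in the capillary set.

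Clustering the endothelial barcodes on their 1500 most variable genes gave 6 clusters. A cluster against the rest is no test, and its leading genes only say what it is. Cluster 4, with 186 barcodes, was arterial-like: 12 arterial markers reached 20 CPM and 1.5 times the rest, among them GJA5, HEY1, EFNB2 and CXCL12. In the arterial set were 133 of its barcodes (71.5%). That set is counted from the same markers, which were not kept out of the clustering, so this share is no separate measure. Cluster 3, with 340 barcodes and the deepest (median 5758.5 UMIs), was led by SCIN, MT1X and ACKR1, which marks venules. Too few venous markers were enriched in it to name it. Cluster 5, with 76 barcodes, was led by the spermatid genes ACRV1, PRSS37 and PDILT at a median germ cell share of 0.820%, and 24 of its barcodes exceeded 1%. Clusters 1 and 2, with 151 and 504 barcodes, were the shallowest, at medians of 1952 and 2074.5 UMIs. Cluster 2 held 41 of the 71 barcodes of over 1% germ cell UMIs. CA5A led both cluster 0, with 374 barcodes, and cluster 1, at 5017 and 5086 CPM. It was not kept out of the clustering either, so its level there is no separate measure. The germ cell genes TEX47, TEX37 and RNF151 were also among the leading genes of cluster 1. At a Leiden resolution of 1 the most arterial cluster held 51 barcodes, 34 of them in the arterial set.

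CA5A encodes a carbonic anhydrase of mitochondria. It was examined further after its values had been seen. Whether reads were counted by strand is not stated in the sources used here, so UMIs of CA5A and of an antisense or read-through transcript over it cannot be told apart in the values below. It had 0 UMIs in 900 barcodes (55.2%), 1 to 4 in 177 (10.9%) and 5 or more in 554 (34.0%, 31.7 to 36.3%). In the last group the median was 19 UMIs and the highest value 121. The high group had a median of 4070 UMIs in all and the group at 0 a median of 3070.5. Among the 493 endothelial barcodes over 5000 UMIs, 203 (41.2%) had 5 or more CA5A UMIs and 246 (49.9%) had 0. In spermatid barcodes CA5A stood at 72.4 CPM, with a UMI in 25.03%. Among the 826 ZEA barcodes outside the endothelial set with 5 or more UMIs of the endothelial list, 23.1% had 5 or more CA5A UMIs.

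**Figure D5:**
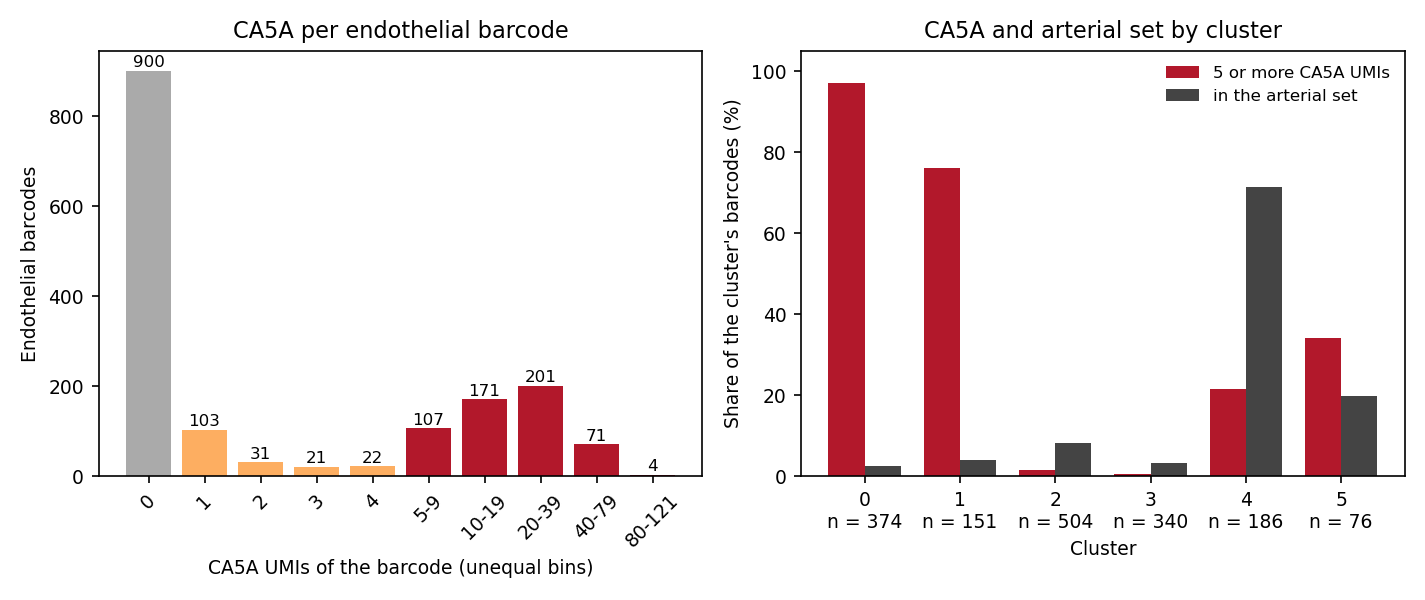
Left, the number of endothelial barcodes by their CA5A UMIs in unequal bins, with 900 at 0 and 554 at 5 or more (red). Right, the share of each cluster's barcodes with 5 or more CA5A UMIs (red) and in the arterial set (dark). Clusters 0 and 1 hold 97.1% and 76.2% barcodes of high CA5A, clusters 2 and 3 1.59% and 0.588%. Neither CA5A nor the arterial markers were kept out of the clustering, so these shares are no separate measure.

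Few other genes followed CA5A. Between the 554 high and the 900 zero barcodes, 35 of 6799 genes (0.515%) were at least 2-fold higher and 73 (1.07%) lower. The higher genes with most change among those of 100 UMIs were APBB1IP, QDPR, APOE, PIEZO2, ZNF804A, P4HA1, BTG2 and ESM1, with log2 ratios of 1.30 to 2.11. APOE, an apolipoprotein, stood at 145 against 45.9 CPM, PIEZO2, a mechanosensitive channel, at 51.0 against 16.8, and ESM1, a gene of sprouting endothelium, at 84.2 against 34.2. The gene next to CA5A in the RefSeq order of the sheep assembly ARS-UI_Ramb_v3.0, SLC7A5, stood at 99.0 against 45.6 CPM (260 and 160 UMIs). BANP, on the other side, had 2 UMIs and 1 UMI, too few to compare.

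Lower in the high group were SCIN, RNF144B, ELOVL7, TMEM61, PDLIM4, FKBP5, NET1 and CGNL1. SCIN had 0 UMIs in the high group and 121 in the zero group, a log2 ratio of -4.92 or lower. FKBP5, a gene induced by glucocorticoids, stood at 57.9 against 180 CPM, and CGNL1, a junction protein, at 15.2 against 42.8. The transporter list differed little, at 3752 CPM in the high and 4170 in the zero group, and the endothelial list stood at 6652 against 6070. Germ cell shares had medians of 0.173% and 0.226%. The arterial set held 9.21% of the high and 15.1% of the zero barcodes.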

How the data were processed

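Values in the deposited files are whole UMI counts without normalization. Cell Ranger wrote them, in version 5.0.0 for Control and 3.1.0 for ZEA per the file headers, so software and group cannot be told apart. STAR and Cell Ranger 3.1.0 are listed in the submitters' processing notes. The sources used here do not give the genome build or annotation. Of 27054 genes, 10636 have no symbol and are counted but not named.

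UMIs were summed over barcodes and scaled to CPM, with exact Poisson, exact binomial (Clopper-Pearson) and, for log2 ratios, exact conditional binomial intervals at 95%. A count of 0 was set to 3 counts in a ratio, also within list medians. No p-value was computed. Clusters came from scanpy 1.11.5 (10000 counts per barcode, log, 20 components, 15 neighbours, Leiden resolution 0.5, igraph 0.11.9). The ratio script was tested on simulated data. Other steps used python 3.11.15, numpy 2.4.6, scipy 1.17.1 and pandas 2.3.3.

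The members, the 39 gene lists and the rules were chosen with earlier results of these data known. Named are the 25 highest and 10 lowest ratios against the other ZEA barcodes (200 UMIs, rule genes left out), members of the lists with most UMIs or the largest ratio, 8 genes in each direction between vessel sets and CA5A groups, and hormone receptors. The criterion for naming a cluster was set after the clusters were seen. Further genes (STAR, INSL3, NOS3 and other sparse markers) were chosen after their values were seen. Alternatives to the rule, filter, scaling, depth and comparison set were run.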

Additional observations from a re-analysis of the deposited data

How the results depend on the processing

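The 25 leading genes stayed at least 2-fold higher, and the 10 lowest at least 2-fold lower, in the main result and in 12 alternatives, of which 3 were chosen after seeing the data, as were all those for arterial against capillary and CA5A. These genes were picked as the extremes of the same data. Filter alternatives could not change a gene's ratio, and scaling shifted all ratios alike. With the other barcodes limited to 5% germ cell UMIs, the counts of higher and lower genes stayed at 2246 and 2231. That limit could hardly change them, since the germ cell share of the other barcodes had a 95th percentile of 2.72% and a highest value of 5.53%. It does not show what the ratios would be without germ cells. The share of ZEA barcodes taken as endothelial was 27.5% with 1 UMI of VWF and CDH5, 13.8% with 3, 17.4% from 1000 UMIs, 15.8% with ACTA2 and DCN at 0 and 3.55% thinned to 500 UMIs before the rule. Their median depth was 3595 UMIs from 1000 UMIs and 2521 UMIs with 1 UMI of VWF and CDH5. Genes higher and lower than in all other barcodes numbered 561 and 1026 of 2303 entered thinned, with a median log2 ratio of -0.69. They numbered 3877 and 5738 of 14991 with 10 UMIs and no detection minimum. Against contractile, fibroblast and pericyte barcodes they numbered 718 and 965 of 6666. In the main result 7030 genes entered. The endothelial list median was 3.20 with 1 UMI of VWF and CDH5, 2.40 with 3, 2.34 with equal weight per barcode, 2.42 thinned and 3.64 against barcodes without VWF and CDH5. Of 31 list medians 27 kept their sign; Notch turned to -0.089 with 1 UMI of VWF and CDH5 and to -0.20 with 10 UMIs and no detection minimum, and against the contractile, fibroblast and pericyte barcodes haemostasis and vascular tone turned to -0.40 each and oxidative genes to -0.075. The arterial share was 11.3% with 3 UMIs and 4.72% thinned. Genes higher and lower in the arterial set numbered 408 and 221 without barcodes of over 1% germ cell UMIs, 136 and 61 thinned, 431 and 246 with equal weight and 256 and 379 scaled to the median ratio. Thinned, PROS1 and SCIN had 0 arterial UMIs. Their log2 ratios of 0.28 and 0.92, with 3 counts in place of 0, give no direction. For CA5A, 12 and 27 genes were called thinned. The number of genes entered was not recorded for the thinned arterial and CA5A comparisons, so these counts cannot be read as shares. The cause of the other changes was not tested. Clusters numbered 5 to 9, and the most arterial one held 51 barcodes at resolution 1 against 186. No paired analysis was possible because each group has 1 library.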
